A study of Mus musculus with 70 samples.

Results

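The Trim12 and Trim30 genes form a cluster of related genes on mouse chromosome 7, and 7 of them were described here: Trim12a, Trim12c, Trim30a, Trim30b, Trim30c, Trim30d and Trim34a. The genes were selected on their position in the cluster and on their levels in NOD against control libraries, above all the near absence of Trim12a in NOD mice. The transcripts of each gene were summed in the deposited table of expected read counts, and 6 of the 7 had an entry there, among 24429 genes in all. Trim30c was not analysed here. Because strain differences of these genes led to their choice, every difference of theirs between strains is given as a description, with its standard error (SE) and no test. Their differences between cell types were not used in the choice and were tested, and so were strain differences of related genes outside the cluster.

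The libraries came from spleens of mice 8 to 10 weeks old, taken 5 hours after an intraperitoneal injection of PBS, which all groups received. There were 70 libraries in 18 groups of sorted cells. The cells were monocytes, plasmacytoid dendritic cells (pDC), dendritic cells derived from monocytes (moDC), and both types of conventional dendritic cell, cDC1 and cDC2. NOD mice, the inbred strain that develops autoimmune diabetes, were compared with B6g7 mice, which are C57BL/6 mice that carry the NOD class II MHC haplotype. This comparison had 47 libraries, with 6 of each strain for cDC1 and for cDC2, 5 NOD and 6 B6g7 for moDC, and 3 of each for pDC and for monocytes. NOD Rag1-/- mice were compared with B6 Rag1-/- mice in 23 libraries of another sequencing run. Both of those strains lack the recombinase needed for mature B and T cells, and the B6 Rag1-/- label names no NOD MHC haplotype. There were 3 libraries a group, except 2 for moDC of B6 Rag1-/- mice. Sort dates of the Rag1-/- strains were the same in cDC1 and differed in part in cDC2, moDC and pDC. The main fit of these libraries had no term for sort date, so strain and date cannot be fully told apart there. B6g7 and B6 Rag1-/- are called controls below. Libraries held 12806956 to 19743162 expected counts in the first set and 14671299 to 20642503 in the second. Levels are in CPM, a gene's counts scaled to a fixed total of counts per library, after TMM scaling, which corrects for differences in library composition, and errors of group means are SD over libraries. No label says that replicates came from separate animals, so every spread and p-value here measures variation between libraries, part of which may be technical.

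The sorts were checked against markers of their labelled cell types. The summed level of 6 cDC1 markers was 2519 to 6055 CPM in cDC1 libraries and at most 775 CPM elsewhere, and that of 6 pDC markers was 6552 to 32110 CPM in pDC and at most 559 CPM elsewhere. The 6 cDC2 markers did not set cDC2 apart, since they summed to 877 to 2322 CPM in cDC2 and 2054 to 2359 CPM in monocytes. Summed markers of other cells moved with strain. A sum does not tell stray cells from use of a marker by the sorted cells themselves. The 5 measured of 6 erythroid markers summed to 29.5 to 7500 CPM over control libraries and to 943 to 25410 CPM over NOD libraries, with none of the 5 at 0 in any group. In pDC, 6 monocyte markers summed to 8821 to 9033 CPM in B6g7 and 1996 to 2151 CPM in NOD, with 1 of the 6 at 0 in every NOD library. In the same pDC, 6 red pulp macrophage markers summed to 358 to 487 CPM in B6g7 and 69.1 to 81.7 CPM in NOD. In moDC, 6 neutrophil markers summed to 1.70 to 207 CPM in B6g7, with 1 of the 6 at 0, and to 480.5 to 1696 CPM in NOD, and 5 measured of 6 B cell markers to 70.2 to 323 CPM and 359 to 2529 CPM. In monocytes the neutrophil sum went the other way, at 1665 to 7463 CPM in B6g7 and 243 to 382 CPM in NOD, with 1 of the 6 at 0 in NOD. In moDC of Rag1-/- mice it was 26.9 to 374.5 CPM in the B6 strain and 608 to 10890 CPM in the NOD strain. Whether other cells were present in the sorts, and their part in the strain differences below, was not tested. In bulk libraries, fewer cells of a type that uses a gene and less of its RNA per cell cannot be told apart.

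TRIM proteins are built from a RING domain, which makes most of them E3 ubiquitin ligases, 1 or more B-box domains and a coiled coil. Many are switched on by type I interferon through a promoter motif called the interferon-stimulated response element, and act against viruses or tune innate signalling. In mice, Trim12a and Trim12c stand where primates have the retroviral restriction factor TRIM5, and the Trim30 genes arose by duplication beside them. Mouse Trim30a is known to restrain signalling through NF-kB after Toll-like receptors fire by acting on TAB2 and TAB3, and mouse Trim12c is known to promote interferon and NF-kB signalling. Dendritic cells, and pDC above all, are sources of type I interferon, and the study asks whether their interferon response differs in NOD mice before the onset of diabetes.

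In the mouse assembly GRCm38.p6 the genes lie within a stretch of chromosome 7, with Trim34a at chr7:104244448-104262244 on the plus strand followed by Trim12a at chr7:104299893-104315558 on the minus strand. Trim34b, a neighbour outside the 7 genes, lies between Trim12a and Trim12c at chr7:104329471-104336617 on the plus strand. Trim12c (chr7:104338754-104353358), Trim30b (chr7:104355398-104358646), Trim30c (chr7:104379117-104400852), Trim30a (chr7:104409025-104465193) and Trim30d (chr7:104470014-104507853) follow, all on the minus strand. The promoters below are shown because the genes are known interferon targets and because those of Trim12a and Trim12c can be read against each other. They are reference sequence, and no NOD sequence was examined. Each run is 120 bases of RefSeq sequence from GRCm38.p6, 90 before and 30 after a transcript start, written 5′ to 3′ on the gene's own strand, with capitals marking TTTCNNTTTC, the core letters of the interferon-stimulated response element.
Trim12a, chr7:104315466-104315585, minus strand: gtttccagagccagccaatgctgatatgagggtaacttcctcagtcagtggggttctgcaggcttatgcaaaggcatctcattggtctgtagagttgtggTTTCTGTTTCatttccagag
Trim12c, chr7:104353320-104353439, minus strand: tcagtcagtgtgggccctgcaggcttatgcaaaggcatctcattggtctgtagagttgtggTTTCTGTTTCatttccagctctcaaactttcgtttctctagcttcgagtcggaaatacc
Trim34a, chr7:104244367-104244486, plus strand: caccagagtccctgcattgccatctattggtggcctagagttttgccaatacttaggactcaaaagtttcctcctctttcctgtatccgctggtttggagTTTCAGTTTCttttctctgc
Trim30a, chr7:104465164-104465283, minus strand: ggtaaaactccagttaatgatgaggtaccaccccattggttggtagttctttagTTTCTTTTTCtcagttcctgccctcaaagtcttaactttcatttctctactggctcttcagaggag
Trim30d, chr7:104507820-104507939, minus strand: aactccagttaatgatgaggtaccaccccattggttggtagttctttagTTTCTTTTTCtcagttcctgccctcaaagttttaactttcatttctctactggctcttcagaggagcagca
Trim30b, chr7:104358617-104358736, minus strand: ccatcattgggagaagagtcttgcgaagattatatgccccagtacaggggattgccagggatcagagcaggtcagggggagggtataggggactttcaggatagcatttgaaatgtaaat

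All 7 genes had a promoter entry. TTTCNNTTTC or its reverse complement GAAANNGAAA, searched on both strands in windows from 250 bases before to 50 after the start, was present in 5 of them: Trim12a, Trim12c, Trim30a, Trim30d and Trim34a. The motif was in 1131 of all 32851 such windows (3.44%) and in 3.99% of 27025 genes with a window. The windows of Trim30b, Trim30c and Trim34b held no match, which says only that these letters are absent there. A match is a description of letters and not of a bound site. Trim12a and Trim12c carried the same matched letters, TTTCTGTTTC, and Trim30a and Trim30d both carried TTTCTTTTTC. The first motif base lay at 11 relative to the start in Trim12a and at -29 in Trim12c.

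Trim12a was close to absent in every NOD library and present in every control library. Its role in mice is less well described than that of its neighbour Trim12c. In cDC1 of B6g7 mice it ran from 53.9 to 90.6 CPM over 6 libraries, with a median of 67.3, and in NOD from 0.0932 to 0.943 CPM, with a median of 0.293. In cDC2 it ran from 85.5 to 123.9 CPM (median 98.2) in B6g7 and from 0.327 to 1.02 CPM (median 0.548) in NOD. The lowest B6g7 library of either type thus lay far above the highest NOD library. In moDC, the 6 B6g7 libraries ran from 49.9 to 79.0 CPM (median 70.1), and the 5 NOD libraries were at 0.0727, 0.310, 0.546, 0.392 and 0.450 CPM. In pDC, the B6g7 libraries were at 92.1, 101.0 and 102 CPM and the NOD libraries at 0.223, 0.153 and 0.0811 CPM. Monocytes had the lowest control level, with 31.8, 28.5 and 36.9 CPM in B6g7 against 0.345, 0.0542 and 0.283 CPM in NOD. No group overlapped its partner in these 5 cell types.

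The same gap was present without mature lymphocytes. In Rag1-/- mice, cDC1 of the B6 strain were at 39.6, 37.6 and 51.6 CPM and those of the NOD strain at 0.0581, 0.0545 and 0 CPM. In cDC2 the B6 libraries were at 78.7, 67.5 and 71.5 CPM and the NOD libraries at 0.459, 0.161 and 0.166 CPM. In moDC the 2 B6 libraries were at 50.9 and 54.95 CPM and the NOD libraries at 0.247, 0.234 and 0.0575 CPM, and in pDC they were at 108, 129.8 and 74.6 CPM against 0.396, 0.0825 and 0.396 CPM. Strains again did not overlap in any of the 4 cell types.

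Counts behind the NOD values were few. Pooled over a group and scaled for library size, Trim12a was 155-fold higher in B6g7 than in NOD cDC1 (38 against 5976 counts, 95% counting interval 113 to 219.5), and 145-fold higher in monocytes (12 against 1759 counts, interval 82.8 to 281). In pDC of the B6g7 comparison the ratio was 639 from 6 NOD counts (interval 293 to 1741). In cDC1 of Rag1-/- mice it was 1181 from 2 NOD counts, with an interval of 327 to 9759. These intervals cover counting error only, and not differences between sort dates: B6g7 and NOD cDC1 were at 74.6 to 90.6 and 0.0932 to 0.176 CPM on 10.26.2015 and at 53.9 to 59.9 and 0.410 to 0.943 CPM on 01.05.2016. The remaining ratios were 149.7 in cDC2 and 172 in moDC, and 273, 285 and 359 in cDC2, moDC and pDC of Rag1-/- mice. On the log2 scale of the edgeR fit the difference, NOD minus control, ran from -9.97 ± 0.62 (SE) in cDC1 of Rag1-/- mice to -7.14 ± 0.36 in monocytes.

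Among controls, mean Trim12a levels fell into an order from 104 ± 27.9 CPM (SD, n = 3) in B6 Rag1-/- pDC, through 100.0 ± 13.7 (n = 6) in B6g7 cDC2 and 98.4 ± 5.50 (n = 3) in B6g7 pDC, to 32.4 ± 4.24 (n = 3) in monocytes. Next came 72.6 ± 5.69 CPM in B6 Rag1-/- cDC2, 70.7 ± 16.03 in B6g7 cDC1 and 66.4 ± 12.4 in B6g7 moDC, then 52.9 ± 2.87 in B6 Rag1-/- moDC and 43.0 ± 7.57 in B6 Rag1-/- cDC1. Of the 8 neighbouring pairs in this order, 4 differed by less than the larger SD of the pair: the top pair, B6g7 cDC2 and pDC, B6 Rag1-/- cDC2 and B6g7 cDC1, and B6g7 cDC1 and moDC. Per kilobase of transcript, Trim12a stood at 67.3 CPM per kb in B6g7 cDC2, above Trim34a at 32.5, Trim30a at 28.2, Trim30d at 16.9, Trim12c at 16.4 and Trim30b at 12.2. In B6g7 pDC Trim30a was higher, at 79.4 CPM per kb against 66.2 for Trim12a. In NOD, Trim12a was the lowest of the 6 genes per kilobase in every group, at 0.0253 to 0.432 CPM per kb.

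**Figure D1:**
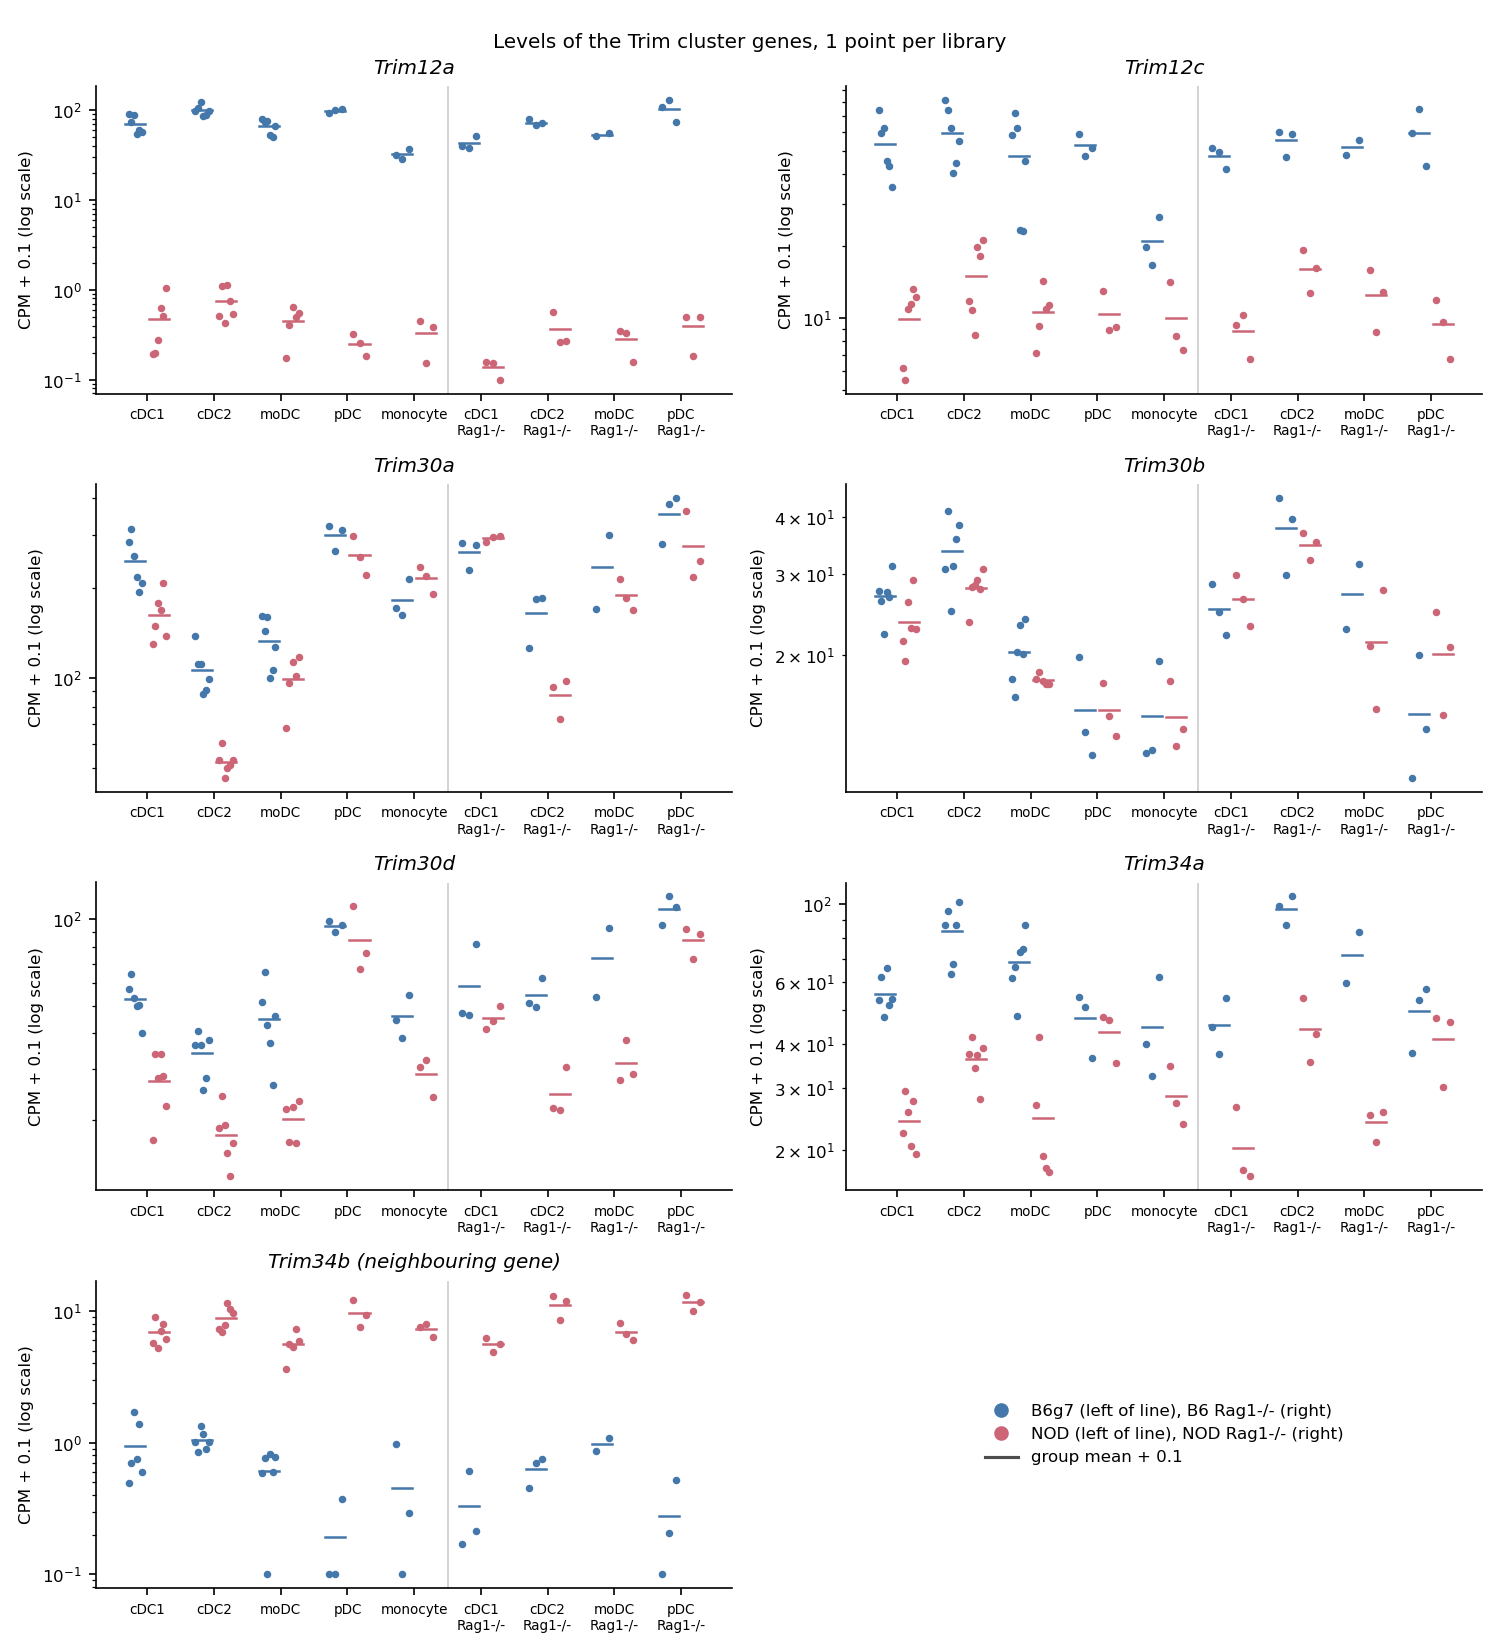
Each point is 1 library and each short line a group mean, for the 6 measured genes and the neighbour Trim34b. The y axes are CPM + 0.1 on a log scale, blue marks B6g7 (left of the grey line) or B6 Rag1-/- (right) and red marks NOD or NOD Rag1-/-. Trim12a separates the strains in all 9 comparisons, with 28.5 CPM the lowest control library and 1.02 CPM the highest NOD library, and Trim34b separates them the other way.

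Trim12c, the close relative of Trim12a, was also lower in NOD in all 9 comparisons without overlap, but it was clearly detected. In cDC1 it ran from 35.3 to 74.0 CPM in B6g7 and from 5.42 to 13.1 CPM in NOD, means of 53.02 ± 14.4 and 9.81 ± 3.26 (SD, n = 6 each). In cDC2 the ranges were 40.3 to 81.3 and 8.42 to 21.1 CPM. The size of the gap varied with the sort date. On 10.26.2015, cDC1 were at 58.98 to 74.0 CPM in B6g7 against 5.42 to 10.7 CPM in NOD, cDC2 at 61.8 to 81.3 against 8.42 to 11.7 CPM and moDC at 57.97 to 72.0 against 7.03 to 9.14 CPM. On 01.05.2016, cDC1 were at 35.3 to 44.97 against 11.4 to 13.1 CPM, cDC2 at 40.3 to 54.55 against 18.03 to 21.1 CPM and moDC at 23 to 45.2 against 10.8 to 14.2 CPM. Monocytes were sorted on 01.05.2016 only, and there B6g7 libraries were at 19.7, 16.5 and 26.3 CPM and NOD libraries at 14.1, 8.33 and 7.22 CPM. The log2 difference was -1.09 ± 0.37 (SE) in monocytes and -2.37 ± 0.27 in cDC1 over both dates, and -2.68 ± 0.29 in pDC of Rag1-/- mice. In those pDC the B6 libraries were at 59.2, 74.6 and 43.2 CPM and the NOD libraries at 11.8, 9.52 and 6.66 CPM. Levels of NOD groups lay close together, from 8.68 ± 1.87 CPM in cDC1 of Rag1-/- mice to 15.9 ± 3.24 CPM (SD, n = 3 each) in cDC2 of Rag1-/- mice, and all 8 neighbouring pairs in their order were within the larger SD.

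The strains also differed in which Trim12c transcript held the reads. The table holds 2 Trim12c transcripts with the same 1491 coding bases in 8 exons each, NM_001146007 and NM_175677. They differ chiefly in the 3′ untranslated region, which has 2024 bases after the last coding base in the first and 902 in the second, for lengths of 3740 and 2484 bases. NM_001146007 held 184.7 to 1392 expected counts in each of the 35 control libraries. In 32 of 35 NOD libraries it held at most 0.712 expected counts, and NM_175677 held 99.846% of the Trim12c reads to within 0.001 percentage points. The share was the same in libraries with different counts, so the small values of NM_001146007 there are given as estimates and not as independent counts.

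The 3 other NOD libraries were replicate 2 of cDC1, with 46.9% of Trim12c reads on NM_175677, and replicates 5 and 6 of cDC2, with 90.6% and 91.7%. In these, NM_001146007 held 31.3 to 32.2 expected counts. In control libraries the share on NM_175677 was 0.0147% to 40%, with a median of 2.38%. In the authors' deposited table the log2 difference of NM_001146007, NOD minus control, was -7.74 in monocytes and -10.77 in cDC2 of Rag1-/- mice, the ends of its range, while that of NM_175677 was above 0 in cDC1 at 4.30 and in monocytes at 1.35. Because NOD reads sat on the shorter transcript, the strain gap was smaller per kilobase than per read. In cDC1 over both sort dates, Trim12c was 5.41-fold higher in B6g7 by CPM and 3.68-fold higher by CPM per kb, and in monocytes 2.11-fold and 1.52-fold.

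**Figure D2:**
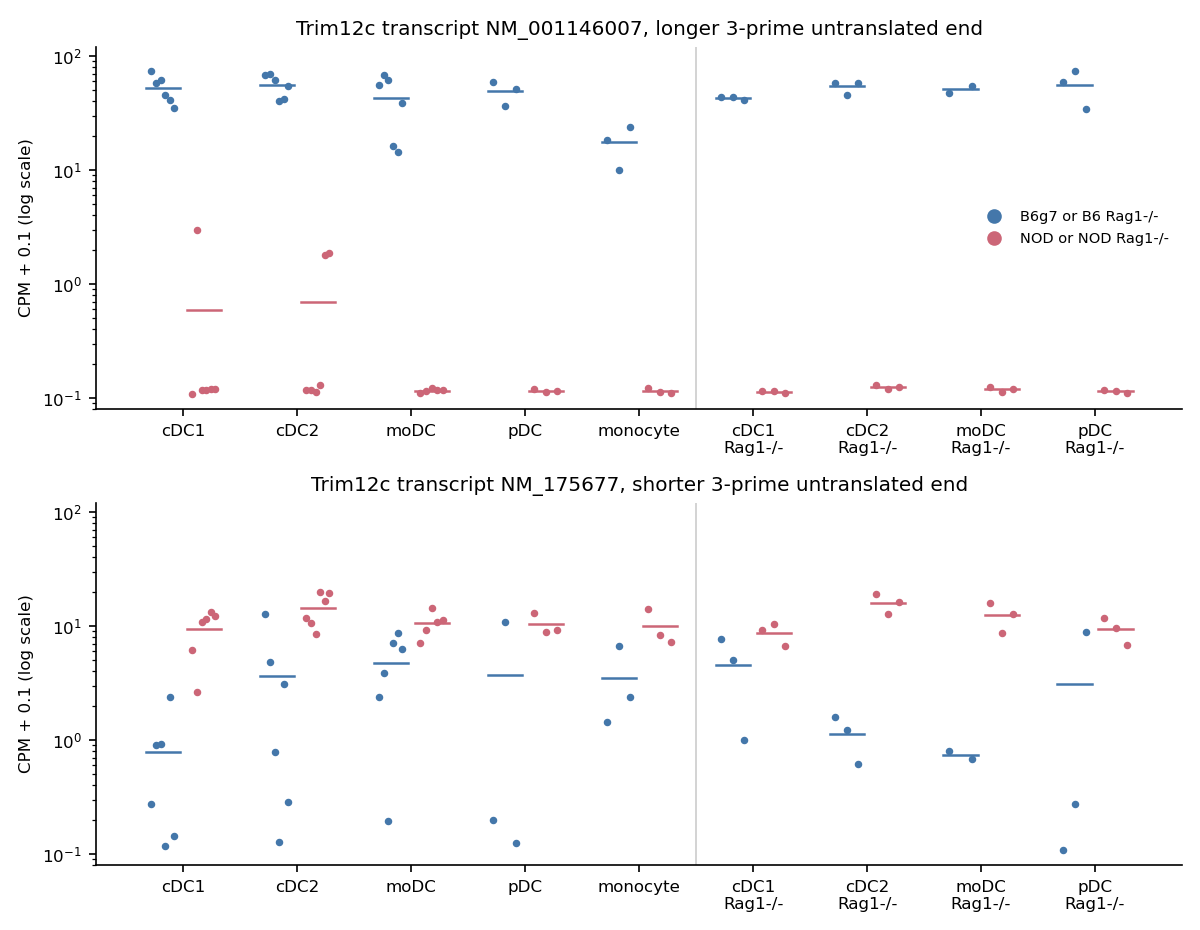
The 2 Trim12c transcripts by library, as CPM + 0.1 on a log scale, with NM_001146007 above and NM_175677 below. Points are libraries and lines group means, blue for B6g7 or B6 Rag1-/- and red for NOD or NOD Rag1-/-. Of the 35 NOD libraries, 32 lie on the floor of the upper panel, and the 3 that do not are 1 of cDC1 and 2 of cDC2.

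Trim34a, at the other end of the cluster and a member of the TRIM6/34 branch of the family, was lower in NOD in conventional dendritic cells and moDC and overlapped in pDC. In cDC1 it ran from 47.8 to 65.6 CPM in B6g7 and from 19.3 to 29.4 CPM in NOD, a log2 difference of -1.19 ± 0.18 (SE). In cDC2 the ranges were 63.1 to 101 CPM and 27.8 to 41.9 CPM (-1.21 ± 0.18), and in moDC they were 48.1 to 87.1 CPM and 17.2 to 41.9 CPM (-1.51 ± 0.19). None of these 3 pairs overlapped. The moDC gap differed by sort date, at 48.1 to 66.2 CPM against 26.8 to 41.9 CPM on 10.26.2015 and 72.99 to 87.1 CPM against 17.2 to 19.1 CPM on 01.05.2016. In Rag1-/- mice, cDC1 were at 44.8, 37.4 and 53.8 CPM in B6 against 26.4, 17.4 and 16.7 CPM in NOD, and cDC2 at 98.5, 87.2 and 105 CPM against 54.02, 35.5 and 42.7 CPM. Rag1-/- moDC were at 59.6 and 83.5 CPM against 25.0, 21.01 and 25.6 CPM, again without overlap. In pDC the B6g7 libraries were at 54.5, 51.0 and 36.5 CPM and the NOD libraries at 47.6, 46.8 and 35.3 CPM, which overlapped, as did those of monocytes. The Rag1-/- pDC overlapped too, with a log2 difference of -0.28 ± 0.25 that turned to 0.13 when only library totals were used for scaling. Whether the strain difference of Trim34a differs between pDC and the other cells was not tested.

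Trim34b, the near copy of Trim34a between Trim12a and Trim12c, was the 1 gene of the stretch that was higher in NOD throughout. In cDC1 it ran from 0.398 to 1.60 CPM in B6g7 and from 5.09 to 8.94 CPM in NOD. In pDC the B6g7 libraries were at 0, 0 and 0.275 CPM and the NOD libraries at 12.1, 7.44 and 9.23 CPM. Strains did not overlap in any of the 9 comparisons, and NOD group means were 5.47 to 11.6 CPM. Of the 150-base stretches in the Trim34b transcript, 12.8% occur letter for letter in Trim34a, and 8.85% of those in Trim34a occur in Trim34b, so reads of this pair can be divided between them. The summed level of Trim34a and Trim34b in cDC1 was 56.4 ± 6.45 CPM in B6g7 and 30.8 ± 5.06 CPM in NOD (SD, n = 6 each). The sum was lower in NOD without overlap in 6 of the 9 comparisons. In pDC it overlapped with a slightly higher NOD mean, 52.8 ± 7.65 against 47.4 ± 9.39 CPM, and in Rag1-/- pDC 52.7 ± 11.06 against 49.6 ± 10.7 CPM (n = 3 each). In monocytes it overlapped at 35.6 ± 6.13 CPM in NOD and 45.02 ± 15.4 CPM in B6g7.

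Trim30a, the regulator of NF-kB signalling, was lower in NOD without overlap in cDC2 of both mouse sets, and in no other cell type over both sort dates. By CPM per kb it was the highest of the 6 genes in every NOD group except cDC2 of the Rag-sufficient mice, where it was at 13.8 and Trim34a at 14.0. In cDC2 it ran from 88.3 to 138 CPM (median 105) in B6g7 and from 46.1 to 60.2 CPM (median 51.9) in NOD, a log2 difference of -1.01 ± 0.12 (SE) without overlap. In cDC2 of Rag1-/- mice the B6 libraries were at 125.6, 183 and 185 CPM and the NOD libraries at 92.7, 72.6 and 97.0 CPM (-0.92 ± 0.25), also without overlap. In cDC1 the ranges met, at 193 to 315 CPM in B6g7 and 129.0 to 206 CPM in NOD (-0.56 ± 0.12). Within the sort of 10.26.2015 those cDC1 groups were apart, at 254.8 to 315 CPM against 129.0 to 178 CPM, and within that of 01.05.2016 they overlapped, at 193 to 216 CPM against 138 to 206 CPM.

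In moDC, Trim30a ran from 99.5 to 160 CPM in B6g7 and from 67.7 to 117 CPM in NOD, which overlapped (-0.39 ± 0.13). On 10.26.2015 the groups were apart, at 143 to 160 CPM against 67.7 to 95.6 CPM, and on 01.05.2016 they overlapped, at 99.5 to 127 CPM against 101.5 to 117 CPM. In moDC of Rag1-/- mice, B6 libraries were at 169 and 300.2 CPM and NOD libraries at 214, 184 and 168 CPM, also with overlap (-0.31 ± 0.28). In cDC1 of Rag1-/- mice, NOD libraries were slightly higher, at 284, 296 and 298 CPM against 282, 229 and 278 CPM, and the log2 difference of 0.15 was smaller than its SE of 0.25. In monocytes, NOD libraries were at 235, 219 and 191 CPM and B6g7 libraries at 171, 161 and 214 CPM, which overlapped (0.23 ± 0.17). In pDC of B6g7 and NOD mice they were at 322, 264.5 and 312 CPM against 298, 253 and 221 CPM and overlapped. In pDC of Rag1-/- mice the log2 difference was -0.38 ± 0.25 with overlap, and it turned to 0.076 when only library totals were used for scaling.

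Trim30b, a shorter gene of the Trim30 group whose role is less described, did not separate the strains. Its NOD and control groups overlapped in all 9 comparisons, with log2 differences from -0.35 ± 0.30 (SE) in moDC of Rag1-/- mice to 0.43 ± 0.27 in pDC of Rag1-/- mice. In cDC1 it ran from 22.1 to 31.2 CPM in B6g7 and from 19.3 to 29.1 CPM in NOD. In moDC of the 10.26.2015 sort alone its log2 difference was 0.046, against -0.20 ± 0.14 over both sorts. A difference within these errors does not show that the strains have equal levels.

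Trim30d was lower in NOD without overlap in cDC1, cDC2, moDC and monocytes. In cDC1 it ran from 39.97 to 64.3 CPM in B6g7 and from 16.9 to 33.8 CPM in NOD, a log2 difference of -0.91 ± 0.15 (SE). In cDC2 the ranges were 25.4 to 40.7 CPM and 12.6 to 24.1 CPM (-0.96 ± 0.16), and in moDC they were 26.3 to 65.6 CPM and 16.4 to 23.1 CPM (-1.09 ± 0.17). Monocytes were at 44.6, 38.3 and 54.3 CPM in B6g7 and at 30.5, 32.2 and 23.9 CPM in NOD. In Rag1-/- mice, cDC2 were at 50.8, 49.4 and 62.4 CPM in B6 against 21.8, 21.5 and 30.3 CPM in NOD, and moDC at 53.6 and 93.2 CPM against 27.5, 37.7 and 28.8 CPM. Both were without overlap, while cDC1 of Rag1-/- mice overlapped. In pDC of B6g7 and NOD mice the libraries were at 98.2, 90.0 and 95.1 CPM against 110.9, 67.1 and 76.2 CPM and overlapped. Rag1-/- pDC were at 95.7, 120 and 110.0 CPM against 92.7, 72.8 and 88.6 CPM without overlap, a log2 difference of -0.37 ± 0.25 that turned to 0.092 when only library totals were used.

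Counted together, 4, 5, 4, 2 and 3 of the 6 genes were lower in NOD without overlap in cDC1, cDC2, moDC, pDC and monocytes. Over all genes tested, 2.19%, 2.65%, 2.59%, 16.1% and 15.8% were lower in NOD without overlap in the same 5 comparisons. In Rag1-/- mice the counts were 3, 5, 4 and 3 of 6 in cDC1, cDC2, moDC and pDC, against 9.81%, 12.9%, 15.1% and 5.56% of all genes. Trim30a in cDC1 of Rag1-/- mice was the 1 case of a higher NOD group without overlap, a direction found in 11.4% of all genes there. The strain contrast served to choose the genes, so nothing is read from these shares. The median log2 difference of the 6 genes, NOD minus control, was -1.05, -1.11, -1.30, -0.16 and -0.66 in the first 5 comparisons and -0.78, -1.15, -1.40 and -0.37 in Rag1-/- mice, beside all-gene medians from -0.03 to 0.02.

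It was then asked whether relatives of Trim12a held more reads where Trim12a held fewer. In 6 of the 9 comparisons none of the 5 other measured genes had a higher mean in NOD: cDC1, cDC2, moDC and pDC, and cDC2 and moDC of Rag1-/- mice. In cDC2 the mean of Trim12a was 99.4 CPM lower in NOD, and the summed mean of the 5 other genes differed by a further -168.3 CPM. In pDC the mean of Trim12a was 98.2 CPM lower and the sum of the 5 others differed by -98.28 CPM. Trim30a had a higher NOD mean in monocytes by 32.9 CPM, beside a Trim12a difference of 32.2 CPM, but its libraries overlapped between strains. Trim30a and Trim30b together were 31.3 CPM higher in NOD cDC1 of Rag1-/- mice, beside a Trim12a difference of 42.9 CPM, and Trim30b was 5.29 CPM higher in pDC of Rag1-/- mice, beside 104 CPM.

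Trim34b was higher in NOD by 4.96 CPM in moDC to 11.4 CPM in Rag1-/- pDC, which is 7.52% to 21.1% of the Trim12a difference in the same comparison. The share was lowest in moDC and highest in monocytes. The sum of all 6 measured genes was lower in NOD in each comparison, with log2 differences of -0.56 in pDC, -1.03 in cDC1, -1.16 in moDC and -1.48 in cDC2, all without overlap. In monocytes the sum was -0.20 with overlap, at 259 to 332 CPM in NOD and 289 to 412 CPM in B6g7. In Rag1-/- mice the sums differed by -0.29 in cDC1, -0.68 in pDC, -0.88 in moDC and -1.22 in cDC2, without overlap. For cDC1 the sum differed by -1.29 within the sort of 10.26.2015 and by -0.75 within that of 01.05.2016. This sum does not depend on which of the 6 genes a shared read was given to. Trim34b, which shares stretches with Trim34a, is outside it. With Trim34b added, the sum was still lower in NOD in each comparison, with log2 ratios of means from -1.40 in cDC2 to -0.16 in monocytes.

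**Figure D3:**
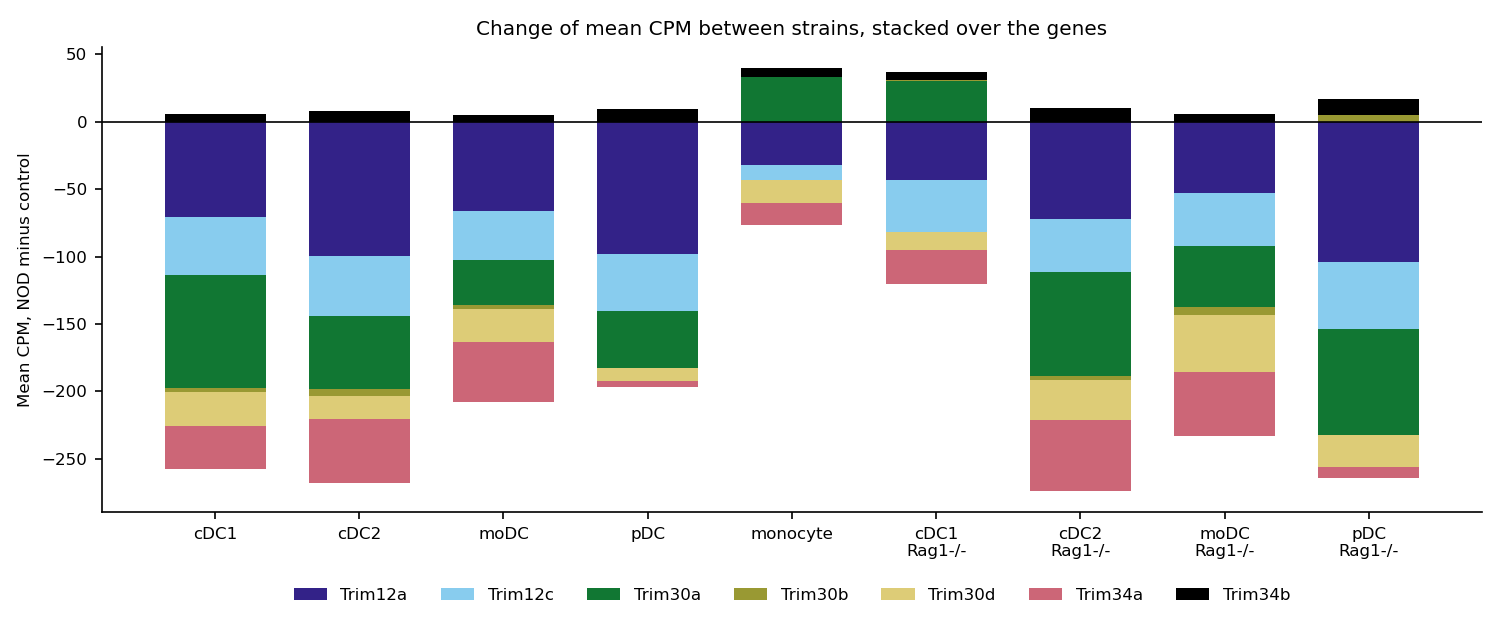
Stacked bars of the difference in mean CPM, NOD minus control, for each gene in each of the 9 comparisons, with no error bars. Bars below 0 are genes with lower means in NOD and bars above 0 genes with higher means. Trim34b (black) is above 0 in all 9, and Trim30a (green) is above 0 in monocytes and in cDC1 of Rag1-/- mice.

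Reference transcripts of the genes were compared for stretches that a read could not tell apart. Of the 1337 stretches of 150 bases, the length of 1 read, in the Trim12a transcript, 0 occur in any other measured gene of the cluster. At 31 bases, 24.9% and 26.7% of the Trim12a stretches occur in the 2 Trim12c transcripts, 0.893% in Trim30a, and 0 in Trim30b, Trim30d, Trim34a and Trim34b. Trim30a and Trim30d share 3.48% of the 150-base stretches of Trim30a, so their separate values carry some uncertainty. Trim30b shares no stretch of either length with the others. These comparisons use reference transcripts, and which strain's transcripts the reads were assigned to is not given in the sources used here.

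Differences between cell types within a strain were tested with edgeR's quasi-likelihood test, with Benjamini-Hochberg adjustment over 13413 or 13137 genes in each of 14 contrasts. The clearest were in Trim30a, which fell from cDC1 to cDC2. In B6g7 mice its mean went from 245 ± 47.7 to 106 ± 18.3 CPM (SD, n = 6 each), a log2 change of -1.16 ± 0.12 (SE) with an adjusted p of 8.2e-11. In NOD mice it went from 161 ± 28.7 to 52.1 ± 4.70 CPM (-1.62 ± 0.13, adjusted p = 9.7e-15), and in NOD Rag1-/- mice from 293 ± 7.63 to 87.5 ± 13.01 CPM (-1.73 ± 0.26, adjusted p = 0.0001). No cDC2 library reached a cDC1 library of its own strain. In B6 Rag1-/- mice the change was -0.66 ± 0.25 and did not pass (adjusted p = 0.099), although the libraries did not overlap; the difference in change between strains was not tested.

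Trim34a moved the other way and was higher in cDC2 than in cDC1 in each strain. The log2 change was 0.63 ± 0.18 (SE) in B6g7 (adjusted p = 0.0026), 0.61 ± 0.18 in NOD (0.0049), 1.11 ± 0.25 in B6 Rag1-/- (0.0055) and 1.14 ± 0.25 in NOD Rag1-/- mice (0.004). Groups overlapped in the first 2 and not in the Rag1-/- strains. Trim30d fell from cDC1 to cDC2 in B6g7 (-0.58 ± 0.15, adjusted p = 0.0015), NOD (-0.63 ± 0.16, 0.00089) and NOD Rag1-/- mice (-0.86 ± 0.25, 0.028), and each of these calls was lost when only library totals were used. The last was also lost without any 1 of cDC1 replicates 1 to 3 and cDC2 replicates 1 and 2. In B6g7 mice Trim12a rose (0.56 ± 0.15, adjusted p = 0.0018) and so did Trim30b (0.37 ± 0.13, 0.013). The call for Trim12a was lost without the sort date term and with limma, and that for Trim30b without cDC2 replicate 2 of B6g7 mice. In NOD Rag1-/- mice Trim12c rose (0.89 ± 0.27, adjusted p = 0.034), a call lost without cDC1 replicate 1 or 3 or cDC2 replicate 1 or 3. It was also lost when genes with low counts were kept in the test. Trim12a entered these tests through the control libraries, since no NOD library was above 1.02 CPM, so its tests within the NOD strains are left out and counts there are of the 5 other genes.

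In these contrasts of cDC2 with cDC1, 5 of 6 genes passed in B6g7, 3 of 5 in NOD, 1 of 6 in B6 Rag1-/- and 4 of 5 in NOD Rag1-/- mice, where 50.5%, 50.5%, 11.2% and 13.3% of all genes passed. In B6g7 mice, 3 of the 5 were higher in cDC2 and 2 lower. The count of 4 in NOD Rag1-/- mice was 2 without cDC1 replicate 1, cDC1 replicate 3 or cDC2 replicate 1, and 3 without any other 1 of the 6 libraries.

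The contrast of pDC with cDC1 set Trim30d and Trim30b in opposite directions. Trim30d was higher in pDC in B6g7 (94.4 ± 4.16 against 52.4 ± 8.13 CPM, log2 change 0.88 ± 0.18, adjusted p = 4.1e-05) and in NOD mice (84.7 ± 23.1 against 27.1 ± 6.62 CPM, 1.67 ± 0.18, 7e-11). It was also higher in B6 Rag1-/- (0.93 ± 0.25, adjusted p = 0.0067) and NOD Rag1-/- mice (0.93 ± 0.25, 0.0088), of which the first call was lost with library totals alone and the second with a sort date term. No pDC library fell within the cDC1 range of its own strain for Trim30d. Trim30b was lower in pDC in B6g7 (-0.80 ± 0.17, adjusted p = 5.1e-05), NOD (-0.61 ± 0.16, 0.0013) and B6 Rag1-/- mice (-0.74 ± 0.27, 0.036). The last call was lost without either of replicates 1 and 2 of cDC1 or replicates 1 and 3 of pDC. In NOD Rag1-/- mice the Trim30b change was -0.37 ± 0.27 with overlap and did not pass (adjusted p = 0.31).

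Trim34a was higher in pDC than in cDC1 in NOD (43.2 ± 6.86 against 24.1 ± 4.06 CPM, log2 change 0.88 ± 0.22 (SE), adjusted p = 0.00055) and NOD Rag1-/- mice (1.05 ± 0.25, 0.0035). In B6g7 its change was -0.21 ± 0.22 (adjusted p = 0.43, 95% interval -0.64 to 0.22) and in B6 Rag1-/- mice 0.16 ± 0.25 (0.63, interval -0.33 to 0.64). Trim12c did not pass in any strain, with log2 changes from 0.02 to 0.35. Trim12a passed in B6g7 (0.53 ± 0.18, adjusted p = 0.01) and B6 Rag1-/- mice (1.31 ± 0.36, 0.0068), and each of these calls was lost under 1 or more alternatives. Trim30a rose in NOD mice (0.70 ± 0.15, adjusted p = 6.5e-05), while its call in B6g7 mice (0.33 ± 0.15, 0.049) was lost without any 1 of cDC1 replicates 3 to 6 or pDC replicates 1 and 3. Trim30a did not pass in B6 Rag1-/- (0.46 ± 0.25, adjusted p = 0.14) or NOD Rag1-/- mice (-0.07 ± 0.25, 0.86). In all, 4 of 6, 4 of 5 and 3 of 6 genes passed in B6g7, NOD and B6 Rag1-/- mice, where 62.4%, 62.8% and 43.9% of all genes did. In NOD Rag1-/- mice 2 of 5 were higher in pDC, a call that 15.7% of all genes had. In the B6g7 and NOD mice pDC were sorted on a date of their own, so cell type and date cannot be told apart in this contrast.

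Between moDC and cDC2, Trim30b was lower in moDC in B6g7 (20.2 ± 3.02 against 33.7 ± 5.89 CPM, -0.75 ± 0.13, adjusted p = 9.3e-06) and in NOD mice (17.6 ± 0.441 against 27.9 ± 2.44 CPM, -0.67 ± 0.14, 9.1e-05), without overlap. Within the sort of 10.26.2015 alone the NOD change was -0.58 and did not pass. Trim30a was higher in moDC in NOD (98.9 ± 19.5 against 52.1 ± 4.70 CPM, 0.94 ± 0.13, adjusted p = 1.1e-07) and NOD Rag1-/- mice (1.11 ± 0.25, 0.0065, lost with library totals alone). Its call in B6g7 mice (0.32 ± 0.12, adjusted p = 0.04) was lost without any 1 of cDC2 replicates 2 to 6 or moDC replicates 1, 2, 3 and 6, and Trim12a was lower in moDC there (-0.60 ± 0.15, 0.0013). Trim34a was lower in moDC in NOD (-0.57 ± 0.19, adjusted p = 0.015) and NOD Rag1-/- mice (-0.88 ± 0.25, 0.028). The first of these calls was lost without replicate 3, 4 or 5 of NOD moDC, and the second without cDC2 replicate 1 or 3 or any 1 of the 3 moDC replicates, each of which left 1 gene called there in place of 2. The first was also lost on 10.26.2015 alone, and the second with library totals alone. For Trim34a, NOD moDC and cDC2 were at 26.8 to 41.9 and 34.1 to 41.9 CPM on 10.26.2015. On 01.05.2016 they were at 17.2 to 19.1 and 27.8 to 38.8 CPM. Counts were 3 of 6 genes in B6g7, 3 of 5 in NOD, 0 of 6 in B6 Rag1-/- and 2 of 5 in NOD Rag1-/- mice, where 35.3%, 39.6%, 1.10% and 10.7% of all genes passed. In the contrast with no call, 0 of the 6 genes had an unadjusted p under 0.05 by edgeR, with the lowest, of Trim30a, at 0.078, and DESeq2 and limma also called 0.

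Monocytes were compared with moDC at the sort date of 01.05.2016. The fit shared its moDC strain effect between both moDC sort dates. The changes and counts below are thus not of that date alone. For Trim34a on that date, NOD moDC were at 17.2 to 19.1 CPM and NOD monocytes at 23.6 to 34.6 CPM. B6g7 moDC were at 72.99 to 87.1 CPM and monocytes at 32.3 to 61.9 CPM. The fitted log2 changes of 0.36 ± 0.25 (SE) in NOD and -0.485 ± 0.23 in B6g7 did not pass (adjusted p = 0.24 and 0.085). From moDC to monocytes Trim30a rose in B6g7 (0.58 ± 0.17, adjusted p = 0.0039, lost with library totals alone) and in NOD mice (1.19 ± 0.16, 3.7e-08). Trim12a fell in B6g7 mice (-0.82 ± 0.21, adjusted p = 0.0017) without overlap, and Trim30b fell there (-0.47 ± 0.17, 0.023), a call lost without moDC replicate 4 or 6 or monocyte replicate 1 or 2. Trim30d rose in NOD mice (0.68 ± 0.20, adjusted p = 0.0058), a call lost with library totals alone and without the sort date term. Counts were 3 of 6 genes in B6g7 and 2 of 5 in NOD mice, where 45.4% and 43.7% of all genes passed, and the count in B6g7 rose to 5 without monocyte replicate 3.

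**Figure D4:**
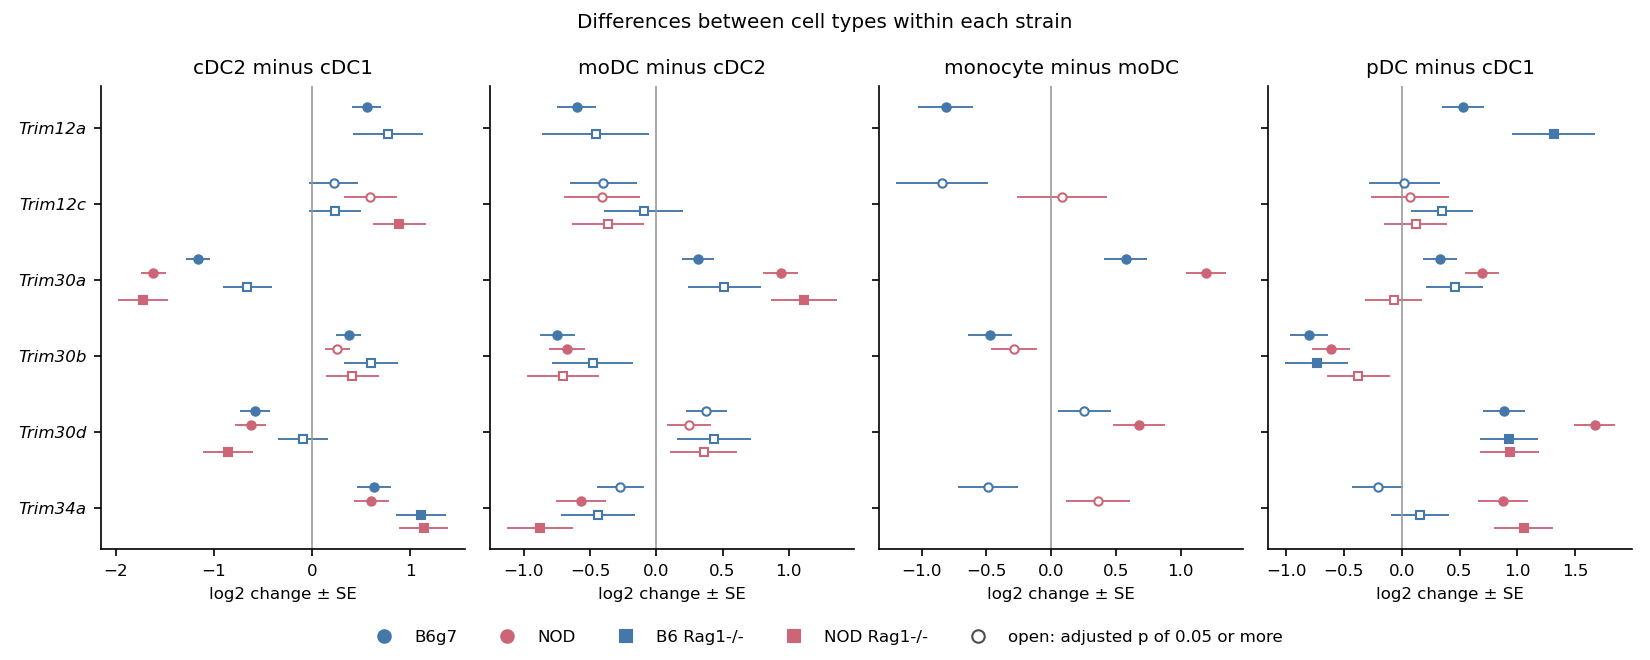
Log2 change ± SE between cell types for the 6 measured genes, from the edgeR fits, with Trim12a left out in the NOD strains. Circles are B6g7 and NOD, squares B6 Rag1-/- and NOD Rag1-/-, blue the controls and red NOD, and open symbols have an adjusted p of 0.05 or more. Trim30a lies at -0.66 to -1.73 in cDC2 minus cDC1 and Trim34a at 0.61 to 1.14, and the panels have different x ranges.

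Lists of genes related to the cluster were examined for the strain contrast: 16 other interferon-induced or antiviral TRIM genes, of which 15 reached the fits, and 15 genes of the TAK1 and NF-kB pathway on which Trim30a and Trim12c are known to act. Trim34b, described above, is 1 of these 30, and in Rag1-/- mice it reached the fit only through NOD libraries, so it is left out of the counts here. Of the 29 others, 5 were higher and 3 lower in NOD cDC1 by edgeR's quasi-likelihood test, where 20.4% of all genes passed. In cDC2, 1 was higher and 4 lower, beside 11.8% higher and 10.2% lower of all genes. In moDC, 1 was higher and 4 lower (30.4% of all genes passed). Monocytes and pDC each had 2 higher and 3 lower, where 15.3% and 12.6% of all genes passed. In Rag1-/- mice 1 of the 29 passed in cDC2, where 2.34% of all genes did, and 0 by edgeR in cDC1, moDC and pDC, where 1.67%, 1.49% and 4.58% did. At an unadjusted p under 0.05 edgeR had 0, 0 and 4 of the 29 in those 3 cell types, limma called 0 in each, and DESeq2 called 0, 0 and 3. Medians of the 30 genes, with Trim34b, were within 0.10 of 0 on the log2 scale in each comparison.

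Trim25, a ligase of RIG-I signalling, was the list gene most often named, and it did not follow 1 direction. Its cDC1 value was added after it was seen: -0.57 ± 0.10 (adjusted p = 2.0e-05), with overlapping groups. It was lower in NOD cDC2 (29.2 ± 4.01 against 52.1 ± 5.69 CPM, log2 difference -0.83 ± 0.10 (SE), adjusted p = 1e-08) and moDC (46.2 ± 8.53 against 76.8 ± 13.7 CPM, -0.73 ± 0.11, 7.2e-07), without overlap. It was also lower in monocytes (-0.53 ± 0.14, adjusted p = 0.005, lost without NOD replicate 1) and in cDC2 of Rag1-/- mice (-1.29 ± 0.27, 0.012, lost without NOD replicate 1 or 2). The last call was also lost with library totals alone and with a term for replicate numbers (the replicate block). In pDC it was higher in NOD (0.45 ± 0.14, adjusted p = 0.021), a call lost without replicate 1 or 2 of B6g7 or replicate 1 of NOD. Trim21, the antibody receptor of the cytosol, was lower in NOD pDC (-0.89 ± 0.23, adjusted p = 0.0053, lost without B6g7 replicate 1), as was Nfkbia, the inhibitor of NF-kB (-0.45 ± 0.14, 0.022, lost without replicate 3 of B6g7 or replicate 1 or 2 of NOD). The pDC calls of Trim25 and Nfkbia were also lost with the replicate block, and that of Nfkbia with library totals alone. In monocytes Pml was lower in NOD (-0.89 ± 0.22, adjusted p = 0.0036, lost with the replicate block), and the NF-kB feedback gene Tnfaip3 (0.62 ± 0.14, 0.0012) and the inflammasome sensor Nlrp3 (0.87 ± 0.25, 0.013, lost without B6g7 replicate 2 or 3) were higher. All of these pDC and monocyte calls were lost without the sort date term. Both strains of pDC were sorted on 10.16.2015 and both of monocytes on 01.05.2016. The term thus makes no date adjustment between strains in these cell types, and the source of the loss was not tested. With no sort date term 2 of 29 genes passed in cDC2 and in moDC in place of 5 in each, 1 in monocytes and in pDC in place of 5 in each, and 1 in cDC1 in place of 8.

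The genes whose group means most resembled those of Trim12a over the 18 groups, among 10517 ranked, were Tmem14c (Pearson r = 0.982 on log2 CPM), 4930481A15Rik (0.981) and D730005E14Rik (0.975). All 3 shared its gap between strains: Tmem14c had group means of 90.2 to 308 CPM in controls and 2.97 to 10.6 CPM in NOD. For Trim30a the closest were Apc (r = 0.920), Trib1 (0.912) and Cldnd1 (0.886), with lower correlations. Apc was lowest in cDC2 of B6g7 mice, at 25.8 CPM, and highest in pDC of B6 Rag1-/- mice, at 103 CPM. These correlations describe 18 means that share libraries and strain, and carry no test.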

How the data were processed

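RNA from sorted cells had been made into libraries with the SMART-seq v4 kit and sequenced as paired-end reads of 150 bases on a NextSeq 500, per the labels' protocols. The submitters' processing notes name RSEM and limma without versions. The aligner, the build and the annotation were not given in the sources used here. The authors deposited a table of expected counts per transcript, although its name says CPM: 50.8% of its entries above 0 are fractional (tolerance 0.001) and library totals differ. They also deposited score tables (normalized expression on a log scale), log2 fold changes and p-values of their own comparisons, and these log2 values were used as an alternative and, for the 2 Trim12c transcripts, printed as the authors' own.

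Of 35070 transcripts, 34710 were named through RefSeq accessions, 262 through the deposited tables and 98 not at all. They were summed to 24429 genes, of which 19106 had a count, and rounded to whole numbers for the fits. Sequence windows came from RefSeq on GRCm38.p6, and shared stretches from GENCODE vM21 transcripts. The members and lists were chosen with earlier results of these data known.

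Tests covered genes reaching 1 CPM in 3 or more libraries (13413 in the 47 Rag-sufficient and 13137 in the 23 Rag1-/- libraries) with edgeR 4.0.16 (R 4.3.3; TMM scaling; robust quasi-likelihood). The first fit had 5 strain effects beside a term for every combination of cell type and sort date, leaving 34 residual degrees of freedom, and the second a mean for each of 8 groups, leaving 15. P-values were adjusted by Benjamini-Hochberg within each contrast, with a threshold of 0.05. Counting intervals are exact, at 95%, and cover counting error only. Alternatives used DESeq2 1.42.0, limma 3.58.1, other scalings, filters, sort dates and left-out libraries. Library totals were 12806956 to 20642503 counts, cells per library 537 to 14529, and RIN 3.9 to 10.0 with 2 libraries under 7. The fits were also run on simulated counts with a fixed spread between libraries and no sort date effect. Such a run does not show how the fits perform on these data.

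List genes were named by a rule: at most 4 per list and contrast with the largest change past the threshold, groups that did not overlap and a higher group mean of 10 CPM or more. Whether replicate numbers pair the samples was checked in 23 contrasts. Every pair's correlation of deviations was over 0.1 in 8 of them, 3 between strains and 5 between cell types, and correlations ran from -0.656 to 0.633. In the Rag-sufficient cDC1, cDC2 and moDC the numbers follow the sort dates.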

Additional observations from a re-analysis of the deposited data

Results flagged for a closer look

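Trim30a differed in sign between comparisons of NOD with control libraries, with 1 of the differences within its error. Every NOD library was lower than every control library in cDC2, with a log2 difference of -1.01, and in cDC2 of Rag1-/- mice, with -0.92. Every NOD library was higher in cDC1 of Rag1-/- mice, with a log2 difference of 0.15 ± 0.25 (SE), a nearest pair of libraries at 284.0 and 281.9 CPM, and 11.4% of all genes higher in NOD without overlap there. The difference between these comparisons was not tested. A library far from the rest of its group was looked for in 36 combinations of gene and group, where chance flags about 1 in 20, and 0 were found. Only cDC1, cDC2 and moDC of B6g7 and NOD mice were checked, since the other groups had 2 or 3 libraries.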

How the results depend on the processing

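Trim12a was lower in NOD in 162 of 162 values (log2 -10.32 to -6.53 over 9 comparisons and their alternatives), and the sum of the 6 genes was lower in 135 of 135 (-1.61 to -0.03). The Trim12a difference moved to -9.30 in cDC1 and -8.56 in moDC on 10.26.2015 alone. It was -8.00 in cDC2 in both the authors' deposited table and their scores, -8.10 in pDC in both, and with a prior count of 2 it was -8.43 in pDC and -8.25 in cDC1 of Rag1-/- mice. The sum of 6 was -0.75 in cDC1 and -0.90 in moDC on 01.05.2016 alone, -1.29 in cDC1 on 10.26.2015 alone, and -0.21 in Rag1-/- pDC with library totals alone. Signs turned for Trim30b in moDC on 10.26.2015 alone (0.046) and, in Rag1-/- pDC with library totals alone, for Trim30a (0.076), Trim30d (0.092), Trim34a (0.13) and the Trim30 sum (0.11). For Trim30a there, the authors' deposited table gave 0.063 and their scores 0.087. Library totals alone shifted the median of all genes by 0.43 there and by -0.31 to 0.29 in the other contrasts. The cause of these changes was not tested.

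Counts of genes called between cell types moved as follows. They are out of 6 in the controls and, without Trim12a, out of 5 in the NOD strains. On 10.26.2015 alone, cDC2 against cDC1 gave 3 in place of 5 in B6g7 and moDC against cDC2 gave 1 in place of 3 in NOD mice. Without the sort date term, moDC against cDC2 gave 1 and pDC against cDC1 gave 2 in B6g7, and monocytes against moDC gave 1 in NOD mice. With the replicate block, pDC against cDC1 gave 2 in place of 4 in B6g7. With library totals alone, cDC2 against cDC1 gave 4 in place of 3 in NOD (4 with limma too), pDC against cDC1 gave 1 in B6 Rag1-/- and moDC against cDC2 gave 0 in NOD Rag1-/- mice. With DESeq2 or a sort date term, cDC2 against cDC1 gave 2 in place of 1 in B6 Rag1-/- mice. With a sort date term pDC against cDC1 gave 1 in place of 2 in NOD Rag1-/- mice. Leaving out 1 library gave 2 to 3 in place of 4 in cDC2 against cDC1 and 1 to 2 in moDC against cDC2 of NOD Rag1-/- mice, and 2 to 5 in monocytes against moDC of B6g7.

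Trim34b is left out of the list counts here too, which leaves 29 genes. Without the sort date term 1, 2, 2, 1 and 1 were called between strains in cDC1, cDC2, moDC, pDC and monocytes. On 10.26.2015 alone 1, 3 and 2 were called in cDC1, cDC2 and moDC, and on 01.05.2016 alone 5 in cDC1. With the replicate block 3 were called in pDC in place of 5. In Rag1-/- cDC2, 0 were called in place of 1 with library totals alone or the replicate block. In Rag1-/- moDC, 0 were called in the main fit and in every alternative. DESeq2 called 3 in place of 0 in Rag1-/- pDC. Leaving out 1 library gave 3 to 7 in pDC (3 without B6g7 or NOD replicate 1), 1 to 2 in Rag1-/- cDC2 (1 without NOD replicate 1 or 2), and 1 to 6 in Rag1-/- pDC (6 without B6 replicate 3, 2 without NOD replicate 3). The replicate block moved no other count by over 1.5 times. Depth limits Trim12a in NOD, where 2 to 62 counts stand behind a group.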
